A study of Homo sapiens with 10 samples.

Results

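Antisense noncoding transcripts are RNAs made from the strand opposite a named gene and carry that gene's symbol followed by -AS and a number. The 663 described here are the rows whose symbol has this ending and whose noncoding RNA (ncRNA) counts reached 10 over all 10 libraries, out of 1064 rows with the ending, 960 of them with any count, and out of 12409 symbols with any ncRNA count. The values that chose them are thus their own summed counts, in all groups together. HEK 293T cells, an established human embryonic kidney line, expressed FLAG-tagged eIF4A and were treated for 1 h with 20 nM CR-1-31-B, with 20 nM silvestrol or with DMSO as vehicle, then irradiated at 254 nm (400 mJ/cm2). The tagged protein was pulled down through its FLAG epitope and the RNA crosslinked to it was sequenced (eCLIP), with 3 libraries for each treatment, while 1 input library was made with no antibody and its treatment is not given in the labels. All groups carried the tagged protein; which eIF4A paralogue was tagged, and whether the cells are 1 clone, is not given in the labels. Nothing in the labels says that the 3 libraries of a group came from separate cultures, so the p-values measure only the spread between these libraries.

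eIF4A is the RNA helicase of the translation initiation machinery and unwinds the 5' leaders of mRNAs ahead of the scanning ribosome. Silvestrol, a plant compound, and CR-1-31-B are both rocaglates, a class known to clamp eIF4A onto purine-rich RNA. Antisense transcripts are mostly long noncoding RNAs: some overlap the sense gene, others start beside its promoter and run the opposite way, and some are spliced, exported and met by ribosomes. The study asked which RNAs eIF4A contacts with and without the compounds, and here each antisense transcript is set beside the 5' leader of its sense gene.

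Strand and position in GENCODE v29 (GRCh38) were used to check the name. Of the 663 transcripts, 607 matched by name, and for 594 both the antisense and the sense gene were found. The pair lay on opposite strands in 593 of these and on the same strand in 1, TUB-AS1. The genes overlapped in 526 pairs (88.6%), 55 (9.26%) were head to head with starts within 1 kb, and 12 lay farther apart. Exons of the antisense and the sense gene overlapped in 378 pairs (63.6%). Whether the counting used strand is not given in the sources used here, so for these pairs reads from the sense and the antisense exons cannot be told apart. By gene type, 465 were annotated as antisense, and 1, NCBP2-AS2, as protein coding. The median length of the longest annotated transcript was 2016 nt, against 670 nt for 14396 other long noncoding genes, and the median purine content was 50.5%, against 50.9%.

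Because rocaglates favour purine-rich RNA, the stretch around the longest run of purines is shown. It is given for the most counted transcripts and for some at either end of the response. Each stretch is 60 nt of the longest GENCODE v29 transcript, with the run in capitals and positions counted from the transcript's 5' end. LRRC75A-AS1 (chromosome 17, plus strand; run of 9 nt at positions 1027 to 1035 of 1662 nt) and VPS9D1-AS1 (chromosome 16, plus strand; 14 nt at positions 543 to 556 of 1753 nt) had the most counts. MAPKAPK5-AS1 (chromosome 12, minus strand; 14 nt at positions 106 to 119 of 2290 nt) and SUCLG2-AS1 (chromosome 3, plus strand; 89 nt at positions 665 to 753 of 2226 nt) were above DMSO in every compound library. SSBP3-AS1 (chromosome 1, plus strand; 19 nt at positions 1976 to 1994 of 2624 nt) and UBXN7-AS1 (chromosome 3, plus strand; 10 nt at positions 57 to 66 of 386 nt) were below it in every one, and C1RL-AS1 (chromosome 12, plus strand; 47 nt at positions 4828 to 4874 of 5272 nt) had a long run and a negative fold change.
LRRC75A-AS1: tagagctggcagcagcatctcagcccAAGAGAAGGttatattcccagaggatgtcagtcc
VPS9D1-AS1: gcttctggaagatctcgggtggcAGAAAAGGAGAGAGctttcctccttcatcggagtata
MAPKAPK5-AS1: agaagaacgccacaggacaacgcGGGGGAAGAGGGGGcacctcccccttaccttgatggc
SUCLG2-AS1: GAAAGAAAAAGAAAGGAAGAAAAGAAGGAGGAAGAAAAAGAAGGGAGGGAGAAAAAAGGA
SSBP3-AS1: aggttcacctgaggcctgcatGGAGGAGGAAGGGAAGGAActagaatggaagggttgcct
UBXN7-AS1: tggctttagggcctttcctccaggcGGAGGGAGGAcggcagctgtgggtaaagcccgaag
C1RL-AS1: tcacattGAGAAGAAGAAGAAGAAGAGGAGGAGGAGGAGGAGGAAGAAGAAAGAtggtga

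In all annotated members the longest purine run had a median of 14 nt, against 12 nt in the other long noncoding genes, and 16.3% of members held a run of 20 nt or more, against 9.04%. Members were also longer, and a longer sequence holds longer runs, so these shares are not corrected for length.

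The 663 transcripts held 74440 counts in all, from 10 to 3114 each with a median of 53. All of these counts were in the ncRNA class. The 16 rows at exactly 10 counts, such as CLYBL-AS1, MAMDC2-AS1 and SEMA6A-AS1, were just inside the limit, and 22 rows at 9, such as CLYBL-AS2, COL18A1-AS2 and PLCXD2-AS1, just outside. The 12 most counted members took 21.9% of the counts, and 272 members had a count in every library. No count was seen in the input library for 54 members and in any DMSO library for 18. A row for the sense gene existed for 648 members (632 genes, 19 of them with more than 1 antisense member), and 585 of these had a leader count. In 288 of the 648 the antisense transcript had more counts than the leader, including the 63 with no leader count. Library totals ranged from 858733 to 1804732 counts with the antibody, and input held 2193699; levels are given as CPM, the count scaled to the total of all counts in the library.

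As a share of all counts, eIF4A libraries held somewhat more antisense RNA than input, an order not checked without 1 dominant RNA of the input library. The compounds did not move the sum beyond the spread between libraries. Summed over the 663 members, the level was 5577, 5532 and 7138 CPM with CR-1-31-B (mean 6082 ± 915), 5308, 6163 and 6933 CPM with silvestrol (6135 ± 813) and 6224, 5935 and 6549 CPM with DMSO (6236 ± 307; SD, n = 3 each). Input held 4969 CPM, below every library made with the antibody, and the DMSO mean was 1.26 times input. This order depends on what else a library held. A single small nuclear RNA, RNU2-1, took 134442 CPM in input and 2000 CPM with DMSO, which lowers the CPM of all other rows in input. Sums without that row were not computed, so whether input stays below every antibody library without it was not tested. The 3 treatments overlapped fully, with replicate 3 highest in each. The 5' leaders of the sense genes gave another picture: their sum was 14726, 14870 and 10840 CPM with CR-1-31-B (13478 ± 2287), 15427, 13217 and 14053 CPM with silvestrol (14232 ± 1116) and 11170, 11461 and 10686 CPM with DMSO (11106 ± 392), against 3768 CPM in input. The silvestrol sums lay above all DMSO sums, while CR-1-31-B replicate 3 lay within the DMSO range. The DMSO mean of the leaders was 2.95 times input. For the sums no test was made, since each is a sum over members chosen by their counts.

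**Figure D1:**
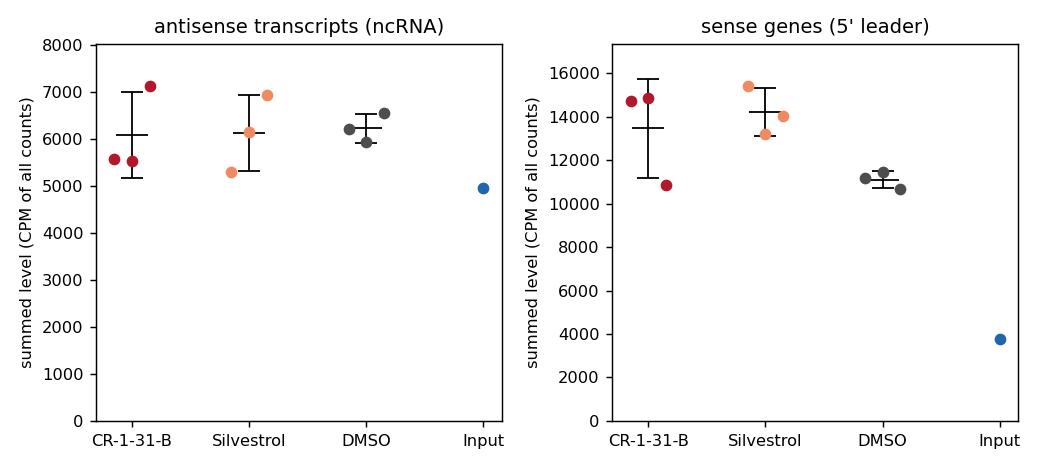
Summed level in CPM of all counts, for the 663 antisense transcripts (left) and for the 5' leaders of their 632 sense genes (right); each point is 1 library, and the bars give mean ± SD of the 3 libraries. The antisense sums of the 3 treatments overlap between 5308 and 7138 CPM, all above the 4969 CPM of the single input library, while the leader sums lie far above their 3768 CPM in input. RNU2-1, at 134442 CPM in input and 2000 CPM with DMSO, lowers the other levels in input.

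Member by member, the ratio of the DMSO mean to input was taken for the 271 members with at least 30 counts in these libraries. Its median was 1.29 (quartiles 0.822 and 2.02), close to 1.11 for all 2066 ncRNA rows of that depth, 1.05 for coding sequences and 1.102 for 3' untranslated regions, whereas the 5' leaders of the members' sense genes had a median of 3.22 and all leaders 3.96. All 3 DMSO libraries were above input for 97 members (35.8%), beside 28.4% of ncRNA rows and 38.4% of all features of that depth. They were below it for 48 (17.7%), beside 23.0% of ncRNA rows and 16.6% of all features. With 1 input library these ratios have no replicate check. They also depend on what else input held: as a share of the ncRNA class alone the members were 3.17 times as frequent in DMSO as in input, and in input the small nuclear RNA RNU2-1 held 34.0% of the ncRNA counts.

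MNX1-AS1, opposite the homeobox gene MNX1, stood highest over input, with 2.80, 23.3 and 7.42 CPM with DMSO and 0.456 CPM, a single count, in input. Its ratio of summed CPM was 24.9 (95% exact counting interval 4.18 to 1009). TOB1-AS1, opposite the antiproliferative gene TOB1, had 20.5, 15.8 and 8.48 CPM with DMSO and 0.912 CPM in input, a ratio of 16.7 (95% exact counting interval 4.37 to 142). C1RL-AS1 had a ratio of 7.28 (95% exact counting interval 2.64 to 28.0). These 3 were chosen from among the highest ratios, and MNX1-AS1 varied widely between DMSO libraries. The lowest ratios were those of TM4SF19-AS1 at 0.237 (95% exact counting interval 0.108 to 0.480), PYCARD-AS1 at 0.248 (95% exact counting interval 0.128 to 0.455), SSTR5-AS1 at 0.280 (95% exact counting interval 0.174 to 0.439) and HCFC1-AS1 at 0.294 (95% exact counting interval 0.137 to 0.594). SSTR5-AS1 had 13.1, 3.72 and 10.6 CPM with DMSO, all below its 32.4 CPM in input. These lowest members were likewise chosen by this ratio. The intervals cover counting error only, and neither the choice of extremes nor the spread between DMSO libraries.

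The 12 most counted transcripts had overlapping levels with and without compound for the most part. LRRC75A-AS1, the host transcript of small nucleolar RNAs also named SNHG29, was the most counted, with 259, 317 and 348 CPM with CR-1-31-B, 255, 198 and 218 CPM with silvestrol and 269, 189 and 209.9 CPM with DMSO, and 199 CPM in input. CR-1-31-B replicates 2 and 3 were above all DMSO libraries, and the silvestrol values lay within the DMSO range. VPS9D1-AS1, a long noncoding RNA also named MYU, had 384, 124 and 225 CPM with CR-1-31-B, 359.6, 136 and 278 CPM with silvestrol and 309, 159 and 315 CPM with DMSO, against 67.5 CPM in input. All 9 libraries were above input, and in each treatment replicate 2 was the lowest. FGD5-AS1, opposite a guanine nucleotide exchange factor gene, had 145, 167 and 71.0 CPM with CR-1-31-B, 149.6, 104 and 119 CPM with silvestrol and 141, 119 and 93.3 CPM with DMSO. TP73-AS1, opposite the p53-family gene TP73, had 111, 192 and 127 CPM with CR-1-31-B, 92.0, 156 and 108 CPM with silvestrol and 133, 114 and 84.8 CPM with DMSO. In both the treatments overlapped.

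For the mean of both compounds against DMSO (edgeR quasi-likelihood test, Benjamini-Hochberg adjustment over all features), the log2 fold change was 0.25 (SE 0.28, adjusted p = 0.840) for LRRC75A-AS1 and -0.05 (SE 0.35, adjusted p = 0.984) for VPS9D1-AS1. It was 0.10 (SE 0.32, adjusted p = 0.950) for FGD5-AS1 and 0.24 (SE 0.31, adjusted p = 0.866) for TP73-AS1. Over all 12 the log2 fold change ran from -0.48 for SLFNL1-AS1 to 0.25 for LRRC75A-AS1. The 95% intervals of these were -1.12 to 0.16 and -0.33 to 0.83, in that order. Across the 12, the intervals reached down to -1.13 for UCKL1-AS1 and up to 0.89 for TP73-AS1, which bound how large a change could have gone unseen. Per kb of the longest transcript, the DMSO level was highest in KMT2E-AS1 (152 CPM per kb), VPS9D1-AS1 (149) and LRRC75A-AS1 (134), which did not differ beyond their spread. ASMTL-AS1 followed with 85.2 CPM per kb, and THUMPD3-AS1 was last with 15.7.

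**Figure D2:**
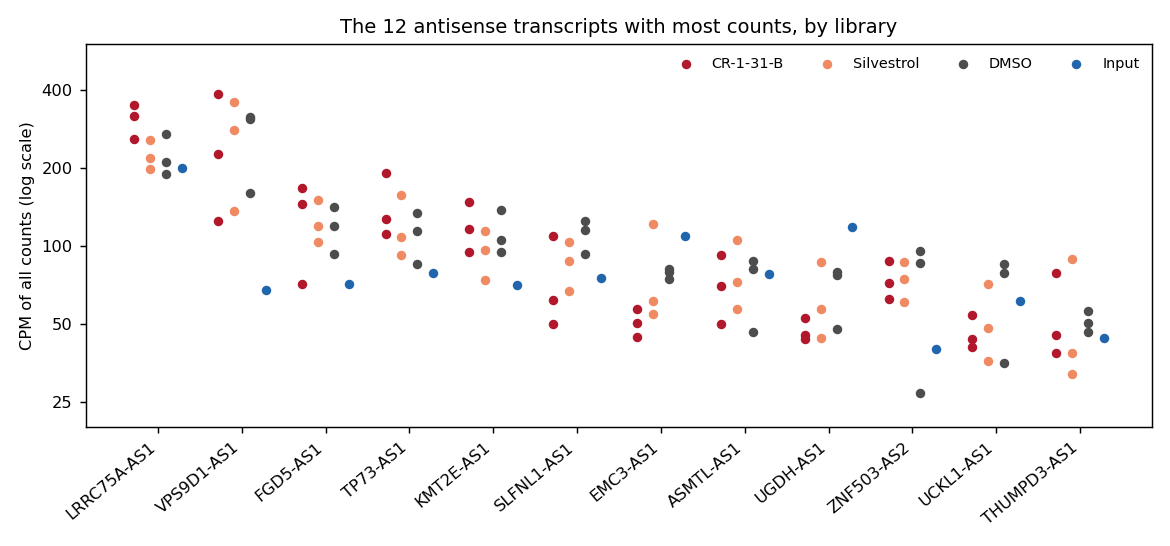
Level in CPM of all counts (log scale) of the 12 most counted antisense transcripts; each point is 1 library of CR-1-31-B, silvestrol, DMSO (3 each) or input (1). The treatments overlap for most transcripts, and VPS9D1-AS1 lies above its 67.5 CPM in input in all 9 antibody libraries, whereas UGDH-AS1 lies below its 118 CPM.

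No antisense transcript passed the test with either compound. Of the 663 members, 227 passed the filter on low counts and were tested. None passed an adjusted p of 0.05 for CR-1-31-B against DMSO, silvestrol against DMSO, CR-1-31-B against silvestrol or both compounds against DMSO. At an unadjusted p under 0.05 there were 12 members (5.29%), 8 (3.52%), 5 (2.20%) and 9 (3.96%), beside 8.86%, 8.09%, 2.46% and 10.0% of all features in the same order. DESeq2 and limma voom, with adjustment, also called 0 in each contrast. The smallest adjusted p among members was 0.318, 0.454, 0.99976 and 0.302 in the same order. Among all 24713 features tested, 0.291% were called for CR-1-31-B, 0.255% for silvestrol, 0.0% between the compounds and 0.49% for both compounds. With the library number as a block these shares were 1.48%, 1.28%, 0.00405% and 2.04%, and the members called were again 0.

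The members as a whole were centred near 0. Their median log2 fold change was -0.11 for CR-1-31-B, 0.03 for silvestrol and -0.06 for both compounds, and 104 of 227 (45.8%) lay above 0 in the last. All 1733 ncRNA rows tested had medians of -0.10, 0.01 and -0.07, and all features -0.03, -0.04 and -0.05. For CR-1-31-B against silvestrol, given at the same dose and time, the members' median was -0.09 and that of all ncRNA rows -0.11. The 321 sense leaders tested had medians of 0.30 for CR-1-31-B, 0.40 for silvestrol and 0.37 for both, beside 0.35, 0.40 and 0.36 for all 7122 leaders, and 225 of the 321 (70.1%) lay above 0 for both. The standard errors were of like size, with a median of 0.60 for the members and 0.51 for the sense leaders. The 436 members that did not pass the filter had a median of 30 counts and are described by their levels only.

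The individual transcripts at the ends of the range were few in counts, and none passed the test. The filter asked for about 9.33 CPM in 3 libraries. MAPKAPK5-AS1, CHKB-AS1, ZNF213-AS1 and SUCLG2-AS1 reached it in every library of both compounds and not in every DMSO library, and SSBP3-AS1, UBXN7-AS1, GNAS-AS1 and BHLHE40-AS1 in every library of DMSO alone, so they passed through those libraries. Among the 5 highest fold changes, MAPKAPK5-AS1, opposite a stress-activated protein kinase gene, was the only one with all 6 compound libraries above all 3 DMSO libraries: it had 41.6, 25.8 and 37.1 CPM with CR-1-31-B, 32.7, 30.9 and 23.3 CPM with silvestrol and 14.9, 1.86 and 20.1 CPM with DMSO. Its log2 fold change for both compounds was 1.40 (SE 0.51, adjusted p = 0.303), and 0.93 without DMSO replicate 2, its lowest library. CHKB-AS1, opposite the choline kinase gene CHKB, had 12.4, 14.9 and 17.5 CPM with CR-1-31-B, 39.9, 16.9 and 23.3 CPM with silvestrol and 17.7, 0 and 4.24 CPM with DMSO. DMSO replicate 1 lay among the compound libraries and replicate 2 held no count, and the log2 fold change was 1.46 (SE 0.69, adjusted p = 0.480), with 3.27 without DMSO replicate 1 and 0.93 without DMSO replicate 2. HAND2-AS1 at 1.41, PXN-AS1 at 1.25 and ZNF213-AS1 at 1.16 completed the 5, each with overlapping groups.

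At the low end, SSBP3-AS1, opposite a gene for a single-stranded DNA binding protein, had 6.21, 1.56 and 2.18 CPM with CR-1-31-B, 2.77, 0.996 and 8.15 CPM with silvestrol and 11.2, 16.8 and 15.9 CPM with DMSO. Every compound library was below every DMSO library, and the log2 fold change was -1.99 (SE 0.79, adjusted p = 0.356). UBXN7-AS1, opposite a ubiquitin-pathway adaptor gene, had 3.10, 0 and 5.46 CPM with CR-1-31-B, 4.43, 8.96 and 6.99 CPM with silvestrol and 16.8, 14.0 and 21.2 CPM with DMSO, again without overlap, and a log2 fold change of -1.98 (SE 0.73, adjusted p = 0.307). GNAS-AS1, from the imprinted GNAS locus, had 14.3, 12.5 and 3.28 CPM with CR-1-31-B, 5.54, 6.97 and 8.15 CPM with silvestrol and 15.9, 20.5 and 25.4 CPM with DMSO, with -1.29 (SE 0.55, adjusted p = 0.421). Its exons overlap GNAS, whose leader was far more counted and stood at 931, 1013 and 555 CPM with CR-1-31-B, 916, 986 and 866 CPM with silvestrol and 723, 1322 and 763 CPM with DMSO, with groups that overlap.

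MRPL23-AS1, opposite a mitochondrial ribosomal protein gene, had 5.59, 10.2 and 6.55 CPM with CR-1-31-B, 2.22, 18.9 and 2.33 CPM with silvestrol and 5.60, 67.9 and 10.6 CPM with DMSO. A single library, DMSO replicate 2, stood far above the rest, and its log2 fold change of -1.92 (SE 0.70, adjusted p = 0.302) was -0.02 without that library. UBA6-AS1, opposite a ubiquitin-activating enzyme gene, had 3.10, 9.38 and 7.64 CPM with CR-1-31-B, 3.32, 3.98 and 1.16 CPM with silvestrol and 19.6, 14.0 and 7.42 CPM with DMSO and a log2 fold change of -1.61 (SE 0.74, adjusted p = 0.467).

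Overlap was counted on levels scaled as in the edgeR fit. All 6 compound libraries were above all 3 DMSO libraries for 2 of 227 members (0.881%, MAPKAPK5-AS1 and SUCLG2-AS1), against 3.51% of all features. They were below for 5 (2.2%: SSBP3-AS1, UBXN7-AS1, GNAS-AS1, BHLHE40-AS1 and CSTF3-AS1), against 2.4% of all features. In CPM of all counts, NCBP2-AS2 was also above, with 15.1 CPM in its lowest compound library and 14.9 CPM in its highest DMSO library. Shares in CPM of all counts were not computed. Among the 321 sense leaders, 19 (5.92%) were above and 3 (0.935%) below, beside 8.4% and 0.8% of all leaders. SUCLG2-AS1, opposite a gene for a subunit of succinate-CoA ligase, had 11.8, 14.9 and 16.4 CPM with CR-1-31-B, 13.9, 18.9 and 25.6 CPM with silvestrol and 9.33, 6.51 and 9.54 CPM with DMSO, with a log2 fold change of 0.97 (SE 0.54, adjusted p = 0.586). It holds the purine run of 89 nt shown above.

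**Figure D3:**
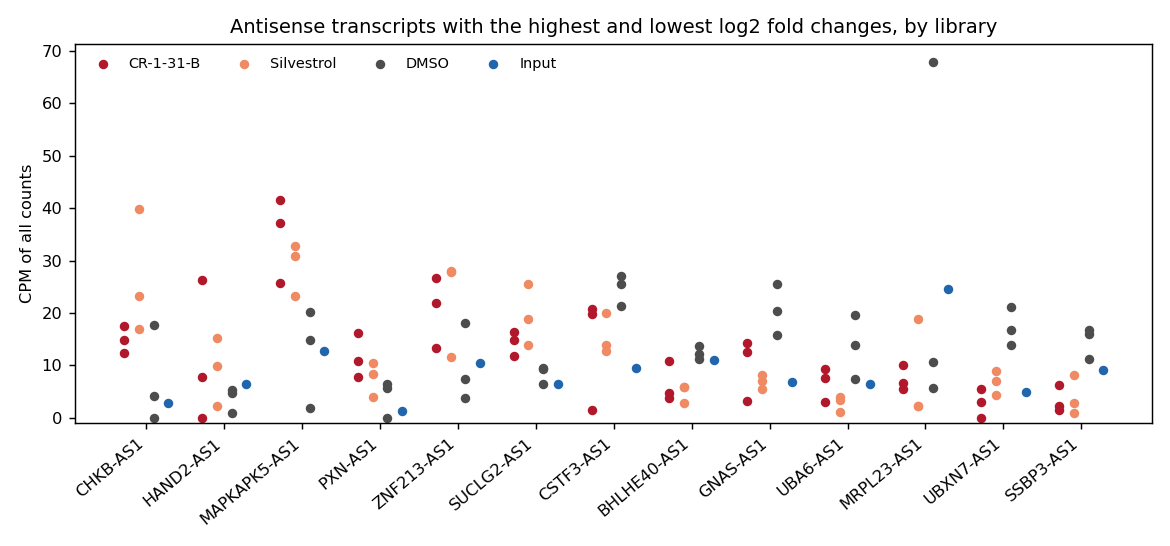
Level in CPM of all counts of 13 antisense transcripts, where each point is 1 library. They have the 5 highest and 5 lowest log2 fold changes for both compounds against DMSO, or compound and DMSO libraries that do not overlap. Overlap was judged on levels scaled as in the edgeR fit. SSBP3-AS1, UBXN7-AS1 and GNAS-AS1 lie below DMSO in all 6 compound libraries, while the low value of MRPL23-AS1 comes from 1 DMSO library at 67.9 CPM.

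The length of the purine run went only weakly with the fold change. Over the 205 tested members with a sequence, Spearman's rho of the log2 fold change for both compounds with the longest run was -0.13, with purine content -0.01, with length -0.03 and with GC content 0.09, given as descriptions across transcripts that share libraries. The 41 members with a run of 20 nt or more had a median log2 fold change of -0.23, against -0.03 for the 164 others. The longest runs belonged to NEXN-AS1 (104 nt, log2 fold change -0.46), SUCLG2-AS1 (89 nt, 0.97), C1RL-AS1 (47 nt, -0.88) and OTUD6B-AS1 (45 nt, 0.44) among those tested. C1RL-AS1 had 4.35, 5.47 and 3.28 CPM with CR-1-31-B, 5.54, 17.9 and 11.6 CPM with silvestrol and 7.47, 22.3 and 9.54 CPM with DMSO, and its value was -0.17 without DMSO replicate 2, its highest DMSO library.

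Each antisense transcript was then set beside its sense leader. In the 122 pairs with both features tested, the median log2 fold change for both compounds was -0.11 for the antisense transcripts and 0.33 for the leaders. The leader was the higher in 82 pairs (67.2%). All ncRNA rows tested had a median of -0.07 and all leaders 0.36, so the difference is also that of the 2 classes. The share for leaders set beside ncRNA rows of other genes was not counted. Some leaders passed the filter only through the compound libraries. In the 70 pairs whose leader was at the filter level in all 3 DMSO libraries, the medians were -0.23 for the antisense transcripts and 0.12 for the leaders, and the leader was the higher in 46. Across the pairs, which share libraries, the fold changes had a Pearson's r of -0.06 and a Spearman's rho of -0.05. In the 71 pairs whose exons overlap the median difference, antisense minus leader, was -0.26, and in the 40 pairs without exon overlap it was -0.70. Among the antisense transcripts of these pairs the medians were alike, -0.11 with and -0.08 without exon overlap, and the leaders differed, 0.20 with and 0.63 without.

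Few sense leaders passed the test on their own, and those of their antisense transcripts that could be tested did not. Of the 321 sense leaders, 3 rose for CR-1-31-B, 3 for silvestrol and 4 for both compounds, beside 0.8%, 0.857% and 1.39% of all leaders. With the library number as a block these were 10, 9 and 12, beside 3.65%, 3.71% and 5.46%. Leaving out 1 library at a time gave 0 to 10 sense leaders for both compounds, with 0 without DMSO replicate 1 or DMSO replicate 3, so these calls rest on few libraries.

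The leader of BOLA3, a gene for a mitochondrial iron-sulphur cluster factor, had 40.4, 57.9 and 15.3 CPM with CR-1-31-B, 28.3, 15.9 and 11.6 CPM with silvestrol and 6.53, 0 and 4.24 CPM with DMSO, and its log2 fold change for CR-1-31-B was 3.39 (adjusted p = 0.0482). BOLA3-AS1, which starts 15 nt from BOLA3 in the other direction, had 20.5, 28.1 and 42.6 CPM with CR-1-31-B, 29.9, 24.9 and 36.1 CPM with silvestrol and 38.3, 38.2 and 29.7 CPM with DMSO. The BOLA3 leader was under the filter level in all 3 DMSO libraries. All compound libraries of the leader were above DMSO, whereas those of the antisense transcript overlapped, with a log2 fold change of -0.23 (SE 0.37, adjusted p = 0.895) for both compounds. The leader of PDCD4, whose protein binds eIF4A and inhibits translation, had 36.6, 41.4 and 21.8 CPM with CR-1-31-B, 96.4, 46.8 and 67.5 CPM with silvestrol and 23.3, 14.0 and 10.6 CPM with DMSO, with 2.16 for silvestrol (adjusted p = 0.0413). PDCD4-AS1 had 6.83, 1.56 and 10.9 CPM with CR-1-31-B, 7.76, 11.0 and 24.5 CPM with silvestrol and 6.53, 12.1 and 11.7 CPM with DMSO, with groups that overlap and a log2 fold change of -0.10 (SE 0.67, adjusted p = 0.981) for both compounds.

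The leader of SRRM2, a gene for a spliceosome-associated protein, had 350.2, 446 and 226 CPM with CR-1-31-B, 514, 352 and 333 CPM with silvestrol and 140.0, 152 and 114 CPM with DMSO, and its log2 fold change for both compounds was 1.45 (SE 0.32, adjusted p = 0.0440). SRRM2-AS1 had 11.8, 13.3 and 6.55 CPM with CR-1-31-B, 9.42, 2.99 and 8.15 CPM with silvestrol and 4.67, 5.58 and 13.8 CPM with DMSO, and 0.11 (SE 0.73, adjusted p = 0.981). The remaining 3 pairs had an antisense transcript too thinly counted to be tested. GNG12, a G protein gamma subunit gene, had a leader at 118, 163 and 99.4 CPM with CR-1-31-B, 93.6, 77.7 and 74.5 CPM with silvestrol and 19.6, 32.6 and 11.7 CPM with DMSO, with 2.24 (SE 0.38, adjusted p = 0.00643), and GNG12-AS1 had 3.73, 6.25 and 6.55 CPM with CR-1-31-B, 1.11, 2.99 and 0 CPM with silvestrol and 7.47, 5.58 and 2.12 CPM with DMSO. SLC2A1, the glucose transporter gene, had a leader fold change of 2.32 (SE 0.53, adjusted p = 0.0485) and only 21 antisense counts in all; its leader was under the filter level in DMSO replicate 2. RAI1 had one of 1.67 (SE 0.34, adjusted p = 0.0303) and 19 antisense counts.

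For the most counted antisense transcripts the ratio to the sense leader was taken within each library, which needs no scaling between libraries. In 9 of the 12 both features had passed the filter. Exons of the antisense and the sense gene overlap in all 9 pairs. Since strand use in the counting is not given, their reads cannot be told apart there, and the ratios carry this limit. The leaders of KMT2E, EMC3, UGDH and ASMTL were not at the filter level in all 3 DMSO libraries, so these 4 ratios are given with no test. The other 5 were compared by an exact two-sided permutation test of 6 compound against 3 DMSO libraries, with p-values that are not adjusted and cannot go below 0.0119, or below 0.0370 when libraries are permuted only within their number. The log2 ratio of KMT2E-AS1 to the leader of KMT2E, a chromatin regulator gene, was 1.11 ± 0.579 with compound and 4.40 ± 3.31 with DMSO (SD, n = 6 and 3), a difference of -3.29. KMT2E-AS1 itself had 116, 94.6 and 147 CPM with CR-1-31-B, 73.7, 96.6 and 114 CPM with silvestrol and 105, 137 and 94.3 CPM with DMSO, which overlap. The KMT2E leader had 69.5, 53.9 and 40.4 CPM with CR-1-31-B, 49.3, 53.8 and 31.4 CPM with silvestrol and 14.9, 0 and 20.1 CPM with DMSO, with all compound libraries above DMSO; its own log2 fold change was 2.12 (SE 0.57, adjusted p = 0.101). DMSO replicate 2 held no leader count, and without it the difference of the log2 ratio was -1.38.

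EMC3-AS1, opposite a gene of the endoplasmic reticulum membrane protein complex, gave a difference of -2.16. It had 50.3, 44.6 and 56.8 CPM with CR-1-31-B, 61.0, 121 and 54.7 CPM with silvestrol and 79.3, 74.4 and 81.6 CPM with DMSO, and its leader 43.5, 44.6 and 15.3 CPM with CR-1-31-B, 73.1, 36.8 and 38.4 CPM with silvestrol and 7.47, 18.6 and 8.48 CPM with DMSO. Of the antisense values only silvestrol replicate 2 was above DMSO, and the leader overlapped in 1 library. UGDH-AS1, opposite the UDP-glucose dehydrogenase gene, gave -2.78, with 45.3, 43.8 and 52.4 CPM with CR-1-31-B, 57.1, 86.6 and 44.3 CPM with silvestrol and 79.3, 77.2 and 47.7 CPM with DMSO for the antisense transcript and 69.5, 61.8 and 15.3 CPM with CR-1-31-B, 53.2, 5.98 and 24.5 CPM with silvestrol and 6.53, 1.86 and 8.48 CPM with DMSO for the leader. In each of the 3 pairs KMT2E, EMC3 and UGDH all 6 compound libraries had a lower ratio than the DMSO library of their number. Their leaders passed the filter through compound libraries, and the share of all pairs with this order was not counted. The order is thus a description and no test. VPS9D1-AS1 went the other way, with 0.75 (exact permutation p = 0.0357, and 0.0370 within library numbers): here the VPS9D1 leader was lower, at 112, 34.4 and 78.6 CPM with CR-1-31-B, 111, 69.7 and 92.0 CPM with silvestrol and 145, 144 and 136 CPM with DMSO. Its p ranged from 0.0179 to 0.143 when 1 library at a time was left out, and it was 0.143 without DMSO replicate 2. The other 4 tested pairs differed by -0.47 to 0.14, with exact permutation p-values from 0.429 to 0.964, and ASMTL-AS1 by 0.79.

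**Figure D4:**
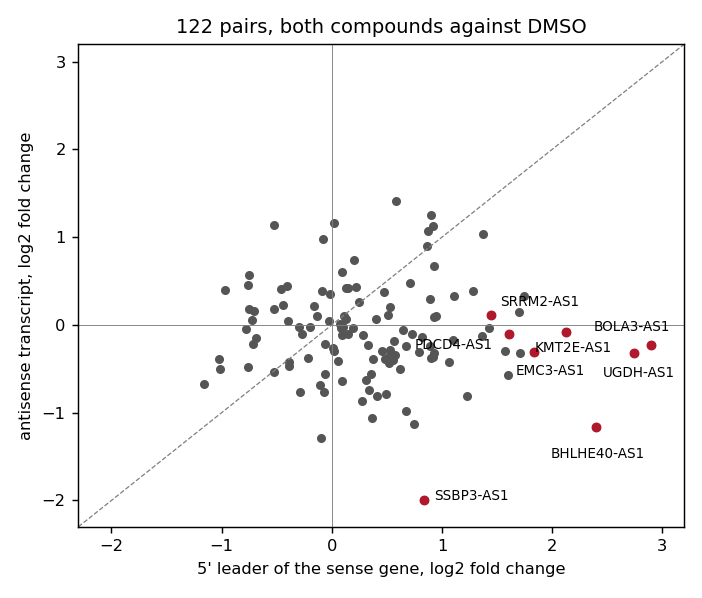
Log2 fold change for both compounds against DMSO of the sense gene's 5' leader (horizontal) and of the antisense transcript (vertical) in the 122 pairs with both tested; each point is 1 pair, named pairs are red, and the dashed line marks equal values. The leader is the higher in 82 pairs. Of the 4 pairs with a leader above 2, BOLA3, UGDH and KMT2E have antisense values from -0.32 to -0.09 and BHLHE40 has -1.16. These 4 leaders were not at the filter level in all DMSO libraries and passed the filter through compound libraries. BHLHE40-AS1 reached that level in every library of DMSO alone. The filter thus favours high leader values in these pairs, and a low antisense value for BHLHE40-AS1.

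The arrangement of the pair went with a difference in the antisense values that was noticed in the data and is given as a description. The 23 tested transcripts that start head to head with the sense gene had a median log2 fold change of 0.36 for CR-1-31-B, 0.44 for silvestrol and 0.44 for both compounds, with 18 of 23 above 0 in the last. The 173 that overlap the sense gene had -0.15, 0.01 and -0.11, with 74 above 0. None of either was called. Some of the 23 reached the filter level in every library of both compounds and not in every DMSO library. With all members and no filter on low counts the medians for both compounds were 0.30 over 55 head-to-head and -0.11 over 526 overlapping transcripts. Of these, 36 head-to-head and 236 overlapping transcripts lay above 0. For head-to-head transcripts the median stayed between 0.33 and 0.49 when 1 library at a time was left out. It was 0.45 when starts were limited to 500 nt apart (22 transcripts) and 0.39 at 300 nt (18).

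The summed level of the 55 head-to-head transcripts was 462, 551 and 574 CPM with CR-1-31-B, 496, 583 and 597 CPM with silvestrol and 421, 490 and 465 CPM with DMSO, and 329 CPM in input. Replicate 1 of CR-1-31-B lay within the DMSO range, and the other 5 compound libraries were above it. Each of the 6 was above the DMSO library of its own number. NCBP2-AS2, annotated as coding for a small protein, was the highest, with 38.5, 21.9 and 18.6 CPM with CR-1-31-B, 35.5, 21.9 and 15.1 CPM with silvestrol and 12.1, 14.9 and 7.42 CPM with DMSO and a log2 fold change of 1.14 (SE 0.49, adjusted p = 0.422). SOX21-AS1, opposite a neural transcription factor gene, had 16.8, 55.5 and 10.9 CPM with CR-1-31-B, 9.42, 13.9 and 8.15 CPM with silvestrol and 10.3, 7.44 and 7.42 CPM with DMSO and 1.04 (SE 0.59, adjusted p = 0.600), with CR-1-31-B replicate 2 far above the rest. NCBP2-AS2 reached the filter level of about 9.33 CPM in every compound library but not in DMSO replicate 3. SOX21-AS1 reached it in every CR-1-31-B library but not in DMSO replicates 2 and 3, so both passed the filter through compound libraries. UBA6-AS1 was the lowest of the class. In the 13 head-to-head pairs with a tested leader, the antisense median for both compounds was 0.42 and the leader median 0.19. Pair by pair the median difference, antisense minus leader, was -0.22, and the leader was the higher in 8 of 13.

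**Figure D5:**
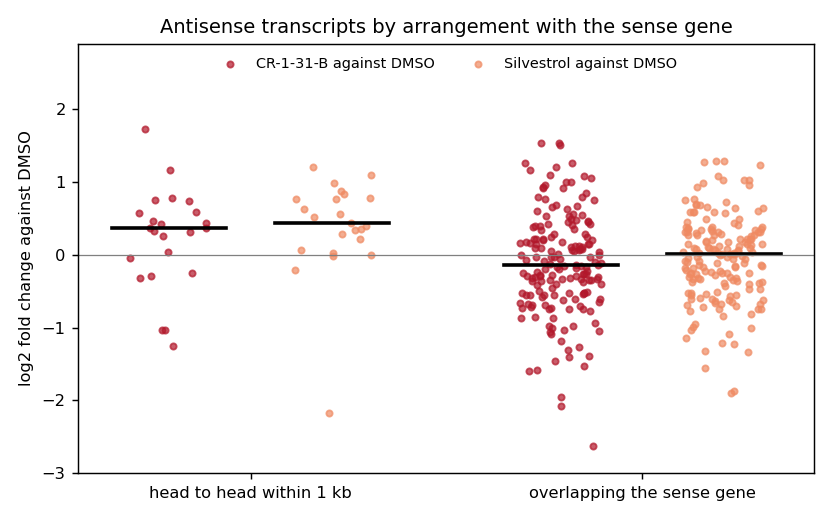
Log2 fold change against DMSO of the tested antisense transcripts, for CR-1-31-B and silvestrol, by their arrangement with the sense gene; each point is 1 transcript and the bars are medians. Head-to-head transcripts have medians of 0.36 (CR-1-31-B) and 0.44 (silvestrol), overlapping ones -0.15 and 0.01, and none was called.

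Grouped by the sense gene's family, no list had a called member. Of 30 members opposite developmental transcription factor genes, such as those of the HOX, SOX and GATA families, 11 were tested, with a median log2 fold change for both compounds of 0.10 and 6 above 0. All lists are cut by the start of the symbol, so this one also holds PAXIP1-AS1, PAXIP1-AS2 and PAXBP1-AS1, whose sense genes are not such factors. The DMSO level of the 30 was a median of 2.26 times input over 14 members, beside 1.29 for all members of that depth. Zinc finger genes gave 21 members, 10 tested, with a median of 0.12; ubiquitin and proteasome genes 19, 7 tested, with 0.01; symbols of kinase and phosphatase genes 17, 7 tested, with -0.13. This last median is the value of CDKN2B-AS1, opposite a kinase inhibitor gene, and regulatory subunits are in that list too. Mitochondrial energy genes gave 5, 4 tested, with 0.37, and symbols of translation and ribosome genes 6, with 2 tested, MRPL23-AS1 and EIF3J-AS1, at a median of -1.44; RPS6KA2-AS1, opposite a protein kinase gene, is among the untested. RNA binding and helicase genes gave 8, with SRRM2-AS1 alone tested.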

How the data were processed

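The deposited values are raw read counts, which the authors gave per gene symbol in 7 classes for 39472 symbols, 1 file per library, per the file headers. The submitters' processing notes name cutadapt for trimming and Bowtie 1.1 for alignment. Genome build, annotation, strand use, duplicate removal and the counting rule are not given in the sources used here. Library totals ran from 858733 to 2193699.

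The 9 antibody libraries were fitted together with edgeR 4.0.16 in R 4.3.3 (filterByExpr by group, TMM factors of 0.951 to 1.05, quasi-likelihood test, Benjamini-Hochberg adjustment over 24713 features, threshold 0.05); the step was tested on simulated data. "Both compounds" is the mean of both treatments minus DMSO. Alternatives were DESeq2 1.42.0, limma 3.58.1 (voom), other scaling, no filter, a replicate block, and each library left out. Pair ratios used log2 with 0.5 counts added. They were tested only for most counted members whose leader was at the filter level in all DMSO libraries, because other pairs were picked by the same contrast or passed through the compound libraries, a narrowing made after the data were seen.

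Members, lists and rules were chosen with earlier results of these data known. Members named are the 12 most counted, the 5 highest and 5 lowest fold changes for both compounds, those whose sense leader was called, the 4 highest and 4 lowest DMSO-to-input ratios, and any in a count of 5 or fewer. One member that this rule names and one sequence are not reported here. The grouping by arrangement was added after the data were seen, as were the named ends of that class and the longest purine runs.

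Libraries with the same number correlated at 0.102 to 0.263 in their deviations from the group means, and other pairs at -0.203 to 0.0163. The main fit had no term for the library number, so its standard errors and p-values leave this correlation out. The number entered as a block in an alternative fit, and the permutations within library numbers also used it. What a number marks is not given in the labels. No 2 libraries of a group repeated counts (chi-square per degree of freedom 3.97 to 9.07). Transcript sequences, strands and lengths came from GENCODE v29 by name; coordinates are not printed because the build of the files is unknown. The exact counting intervals of the DMSO-to-input ratios cover counting error only. The intervals of log2 fold changes come from the edgeR fit and include the spread between libraries.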

Additional observations from a re-analysis of the deposited data

How the results depend on the processing

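Members called stayed at 0 in every contrast under other scaling, DESeq2, voom, the replicate block and each library left out; without the filter on low counts 1 was called for silvestrol against DMSO and 1 for CR-1-31-B against silvestrol. All features called, 72 for CR-1-31-B, 63 for silvestrol and 121 for both compounds, were 225, 215 and 320 without the filter (7 between the compounds), 335, 308 and 531 with DESeq2, and 365, 316 and 505 with the replicate block (1 between the compounds), which moved no member to a call. Sense leaders called, 3, 3 and 4, were 7, 11 and 12 without the filter, 10, 9 and 15 with DESeq2, 10, 9 and 12 with the block, and 1 for CR-1-31-B with voom. Leaving out 1 library gave 0 to 226, 4 to 100 and 7 to 287 features and 0 to 7, 0 to 5 and 0 to 10 sense leaders. The members' DMSO-to-input ratio was 3.17 within the ncRNA class. The cause of these shifts was not tested.

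Small fold changes for both compounds turned sign: VPS9D1-AS1 (0.019 without the filter), THUMPD3-AS1 (-0.083, voom) and SSTR5-AS1 (-0.26, voom; -0.10, replicate block). With 1 library left out they ranged from -0.29 to 0.17 (VPS9D1-AS1), -0.029 to 0.28 (FGD5-AS1), -0.19 to 0.16 (KMT2E-AS1), -0.12 to 0.23 (ASMTL-AS1), -0.22 to 0.44 (ZNF503-AS2), -0.23 to 0.21 (THUMPD3-AS1), -0.12 to 0.74 (SRRM2-AS1), -0.39 to 0.17 (PDCD4-AS1), -0.13 to 1.52 (MNX1-AS1) and -0.40 to 0.43 (SSTR5-AS1). The log2 ratio to the leader ranged from -0.22 to 0.35 (SLFNL1-AS1), -0.57 to 0.11 (ZNF503-AS2) and -0.38 to 0.39 (UCKL1-AS1). Permuting within library numbers, added after the data were seen, moved none of the 5 tested ratios across 0.05. Counts limit what could be tested: 436 of 663 members were too thin to test, and the median standard error of the tested was 0.60.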

Other observations

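CPEB1-AS1, opposite the gene for a cytoplasmic polyadenylation factor, was the 1 member called under any alternative, and it was named after its values were seen. It had 4, 6 and 3 counts with CR-1-31-B, 8, 3 and 128 counts with silvestrol, 2, 13 and 1 counts with DMSO and 2 in input. Without the filter on low counts its log2 fold change was 3.29 for silvestrol against DMSO (edgeR, adjusted p = 0.00130) and -3.81 for CR-1-31-B against silvestrol (adjusted p = 0.000613). A single library, silvestrol replicate 3, holds the high value, and the other 2 silvestrol libraries lie within the DMSO range.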
